A study of Homo sapiens with 3 samples.

Results

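The genes described here were the numbered zinc finger genes of human chromosome 19. A gene was taken when its symbol in the deposited comparison table was ZNF followed by a number, with no suffix, and when all its exons lay on chromosome 19 in the count files. This rule used no measured change and found 173 genes among the 25702 listed in the count files. The comparison table held 16302 genes and 371 numbered ZNF genes in all, of which 198 lay on other chromosomes. That table holds the genes with at least 1 count in the DMSO or the 50 nM library, so each of the 173 genes had a count in one of them by construction.

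RNA was sequenced from Molm13, an established human line of acute myeloid leukemia in which the receptor gene FLT3 holds an internal tandem duplication. The cells were grown in RPMI medium with fetal bovine serum and were exposed for 6 h to the vehicle DMSO, to 50 nM pyrvinium or to 100 nM pyrvinium, an anthelmintic drug. There was 1 library per condition, so no difference below has a replicate check, and each test compares 2 libraries and not the conditions. The libraries held 22677038 to 24075123 counted reads, and 15355 to 15685 genes had a count. Myeloid genes were counted in every library, among them SPI1 with 2981, 2667 and 2491 reads and CD33 with 2015, 1910 and 1965 reads in the DMSO, 50 nM and 100 nM libraries. CD3E and GP9, which mark T cells and platelets, were at 0 in all of them.

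Zinc finger proteins of this family read DNA through an array of tandem fingers, each of which contacts a few bases. Many of those encoded on chromosome 19 also carry a KRAB domain. That domain binds the corepressor TRIM28 (KAP1), which brings in the histone methyltransferase SETDB1, the heterochromatin proteins and the NuRD deacetylase complex, and so silences transposable elements and some genes. The genes arose by repeated local duplication, lie in clusters along the chromosome, and are known for low, short-lived transcripts. Which of the members encode a KRAB domain was not analysed here.

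Most members were expressed at a low level in Molm13 cells. Of the 173 members, 140 had at least 10 counts in at least 1 library and were tested, and 33 had at most 9 counts in every library. Among the 140, 34 stayed below 100 counts in their highest library, 92 reached at least 100 but less than 1000, and 14 reached 1000 or more. The median level of the tested members in the DMSO library was 3.47 counts per kilobase of exon and per 1e6 reads of the library, with a range from 0.0637 to 68.6. Their median normalised read count was 251, against 636 for all 12879 genes tested, and their median exonic length was 3027 bases, against 2774. All members together took 57839 counts in the DMSO library, 0.250% of its reads (95% Wilson interval 0.248% to 0.252%).

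The same family also holds genes that gave no read at all. When the count files were read by current RefSeq symbols instead of the table, they listed 240 numbered ZNF genes on chromosome 19. These are the 173 members, 66 genes outside the table, and ZNF875, which the table lists as HKR1. Of these, 61 (25.4%) were at 0 in all libraries and 38 had 1 to 9 counts. The corresponding share at 0 was 12.9% of the 232 numbered ZNF genes on other chromosomes, 22.8% of the 1133 other protein-coding genes of chromosome 19 and 27.0% of all 18933 protein-coding genes. A gene with 0 counts could still take up to 3 counts of a library, 1.30e-05% of the reads in the DMSO library, which covers counting error only.

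These low genes were unevenly spread along the chromosome. Between 19.8 and 24.3 Mb (hg19), 27 of 36 numbered ZNF genes (75%) had at most 9 counts in every library. Between 52.1 and 54.1 Mb the number was 25 of 39 (64.1%). In the cluster that closes the long arm, from 56 to 59 Mb, it was 17 of 57 (29.8%). At 36.7 to 38.3 Mb it was 6 of 25, and at 2.8 to 2.9 Mb none of the 5 genes fell so low. Neighbours within a cluster are related in sequence, and reads that match several copies may not be counted. Of the 66 genes outside the table, 37 shared no 75-base stretch with another gene, and the highest shared proportion among them was 10.2% of their windows. Among the low members the highest was 25.2%, in ZNF492, which was named after its values were seen.

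**Figure D1:**
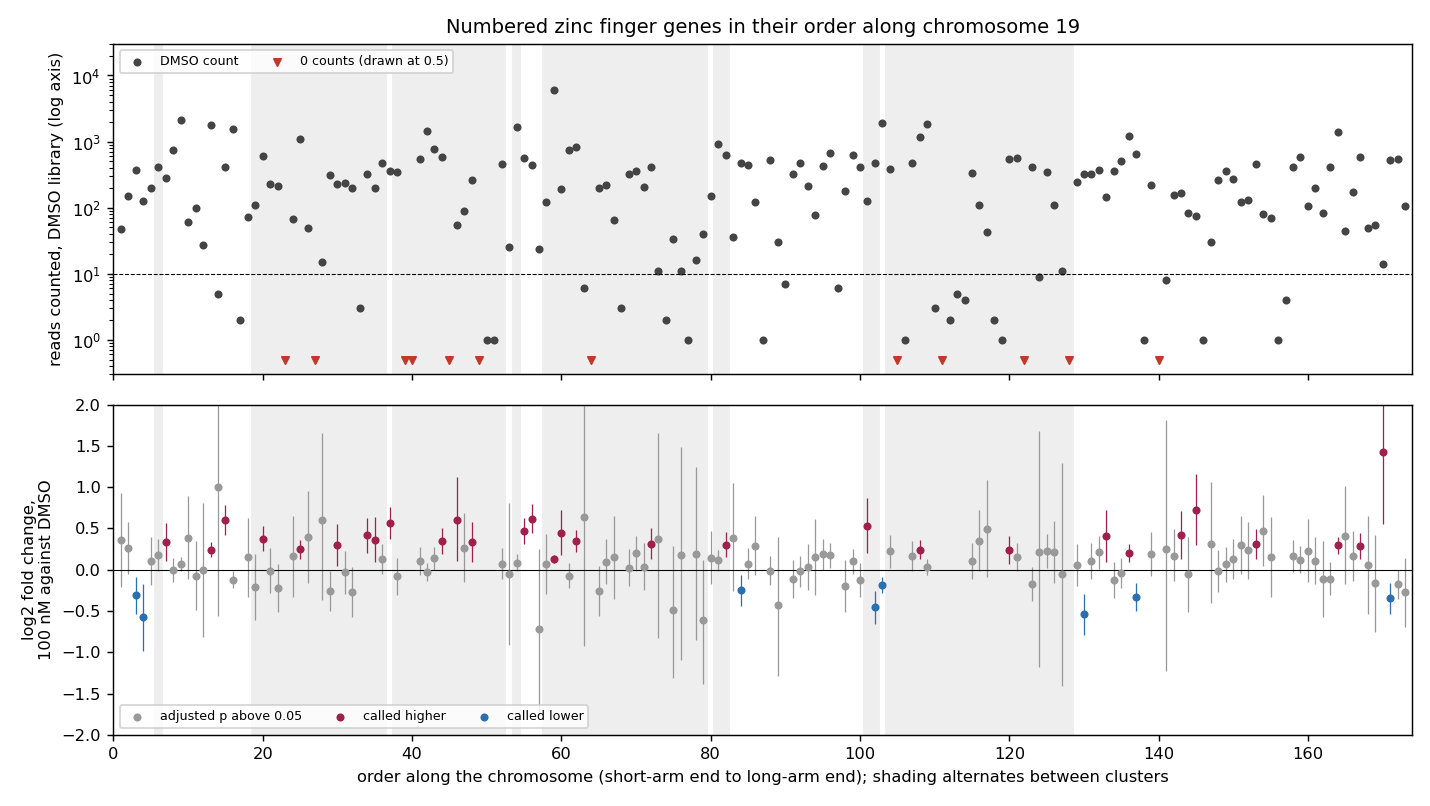
The 173 members in their order along chromosome 19, with reads counted in the DMSO library above (log axis, members at 0 drawn at 0.5, dashed line at 10 counts) and the log2 fold change of 100 nM against DMSO for the 140 tested members below (points), with 95% counting intervals as lines cut at the axis limits of -2 and 2. Shading alternates between clusters, and 30 members are coloured as called higher and 8 as called lower.

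Several family members with a known role were at or near 0. ZNF91 and ZNF93, which silence primate retroelements, and ZNF649, which binds LINE elements, were at 0 in all libraries. ZNF350 (ZBRK1), a partner of BRCA1, and ZNF432 were also at 0. ZNF85 had 1 count, in the 100 nM library. These 6 genes had no count in the DMSO or 50 nM library and were for that reason outside the member list. Among the members, ZNF43 and the imprinted gene ZNF331 had 1 count each, in the 50 nM library, and ZNF304 had 1 count in each library. ZNF382, a KRAB repressor, had 6, 9 and 10 counts. Counts this low allow no statement on a difference between libraries.

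Promoter sequences are shown for the member with the most reads (ZNF146), a member called higher at both doses (ZNF121), one called lower at both doses (ZNF579) and one near 0 counts (ZNF43), so that base composition can be set beside level. They are the 250 bases before the first start listed by RefSeq on GRCh38.p14, written 5′ to 3′ on the gene's strand, with each CpG in capitals. They lie at chr19:36214856-36215105 (plus strand) for ZNF146, chr19:9584505-9584754 (minus) for ZNF121, chr19:55580849-55581098 (minus) for ZNF579 and chr19:21836183-21836432 (minus) for ZNF43.
ZNF146: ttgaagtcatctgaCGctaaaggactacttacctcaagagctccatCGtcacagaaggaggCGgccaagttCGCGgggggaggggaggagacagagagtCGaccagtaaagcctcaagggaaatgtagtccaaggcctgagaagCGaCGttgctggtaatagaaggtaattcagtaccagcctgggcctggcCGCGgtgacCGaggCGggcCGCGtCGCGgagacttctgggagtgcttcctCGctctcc
ZNF121: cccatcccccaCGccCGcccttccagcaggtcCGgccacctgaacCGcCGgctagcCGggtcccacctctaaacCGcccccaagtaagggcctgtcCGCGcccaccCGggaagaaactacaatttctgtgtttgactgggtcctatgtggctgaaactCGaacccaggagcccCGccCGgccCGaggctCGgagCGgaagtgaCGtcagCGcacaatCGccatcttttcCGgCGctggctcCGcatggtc
ZNF579: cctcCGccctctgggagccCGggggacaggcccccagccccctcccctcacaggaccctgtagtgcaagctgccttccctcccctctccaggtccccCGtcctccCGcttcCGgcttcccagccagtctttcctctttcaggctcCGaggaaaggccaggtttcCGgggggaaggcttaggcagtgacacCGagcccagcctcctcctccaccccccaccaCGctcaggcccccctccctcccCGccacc
ZNF43: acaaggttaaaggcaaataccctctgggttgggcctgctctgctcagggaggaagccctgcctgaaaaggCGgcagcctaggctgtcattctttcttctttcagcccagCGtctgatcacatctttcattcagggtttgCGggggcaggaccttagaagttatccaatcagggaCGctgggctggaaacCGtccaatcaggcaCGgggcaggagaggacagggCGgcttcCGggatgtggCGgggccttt
The windows of ZNF146 and ZNF121 hold 17 and 22 CpGs, and those of ZNF579 and ZNF43 hold 10 and 9. These examples do not stand for the members called. The median was 16 CpGs in the 29 promoters of members called higher at 100 nM and 20.5 in the 6 of members called lower.

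A RefSeq promoter was found for 153 of the 173 members and for 55 of the 66 genes outside the table. The median number of CpGs in 250 bases was 17 in the 127 members with at least 10 counts. It was 14 in the 81 numbered ZNF genes of chromosome 19 with at most 9 counts, members and genes outside the table counted as one set. Over all 27305 promoters the median was 11, over genes with at least 10 counts 21, and over genes with at most 9 counts 7. The low ZNF genes thus had more CpGs than the median of low genes in general, as a description with no test.

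Short motifs were counted on both strands, each separately, so that matches of different motifs may overlap. The GC box GGGCGG occurred in 68.5% of the promoters of members with at least 10 counts, in 64.2% of those of the low ZNF genes, and in 42.3% of all promoters. In genes with at least 10 counts overall the share was 66.9%, close to that of the members, and in genes with at most 9 counts 38.5%. The ETS motif CCGGAAG occurred in 28.3% of the members with at least 10 counts, 35.8% of the low ZNF genes and 8.82% of all promoters, and in 16.9% and 4.21% of genes with at least 10 and at most 9 counts. The core of the motif of YY1, CCATNTT, occurred in 8.66% of the members with at least 10 counts, 13.6% of the low ZNF genes, 9.22% of all genes with at least 10 counts and 11.7% of all promoters. For the motif of ATF4, TGATGNAA, these shares were 1.57%, 2.47%, 1.37% and 3.19%. Among the 29 promoters of members called higher at 100 nM, 79.3% held GGGCGG, 31.0% held CCGGAAG and none held TGATGNAA. Among the 6 of members called lower, 66.7% held GGGCGG, 33.3% held CCGGAAG and again none held TGATGNAA. A match describes letters in this window and not a bound site.

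The first comparison asked how RNA levels differed after 6 h at 100 nM pyrvinium. More members had a positive than a negative log2 fold change against DMSO, with small sizes. Of the 140 tested members, 98 (70.0%) lay above 0, with a median of 0.15, quartiles of -0.035 and 0.30, and a range from -0.72 to 1.42. Over all 12879 genes tested, 49.6% lay above 0 and the median was -0.0023. The two-sided exact binomial test, with the Benjamini-Hochberg adjustment over all genes tested, called 30 members higher (21.4%) and 8 lower (5.71%) at an adjusted p of at most 0.05. The background was 21.4% of all genes called higher and 22.2% called lower. The share of members called higher was thus the background share, and the share called lower was below it. These calls rest on counting error alone. With a biological coefficient of variation of 0.1 assumed in edgeR's exact test, 0 members were called in either direction, against 244 of all genes. Before adjustment, 9 of the 140 members and 1453 of all 12879 genes had p at or below 0.05 in that test. In bulk RNA a large change in some cells and a small change in all cells cannot be told apart.

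Changes of 2-fold were rare among the members. ZNF837 was the 1 member called at least 2-fold higher (0.714% of 140, against 1.84% of all genes), and 0 members were called at least 2-fold lower, against 0.512% of all genes (2.35% in either direction). The median log2 fold change of the 30 members called higher was 0.35, with a range from 0.12 to 1.42, and that of the 8 called lower was -0.34, with a range from -0.57 to -0.19. The median width of a member's 95% interval was 0.51 on the log2 scale, and the interval included 0 for 94 of the 140 members.

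**Figure D2:**
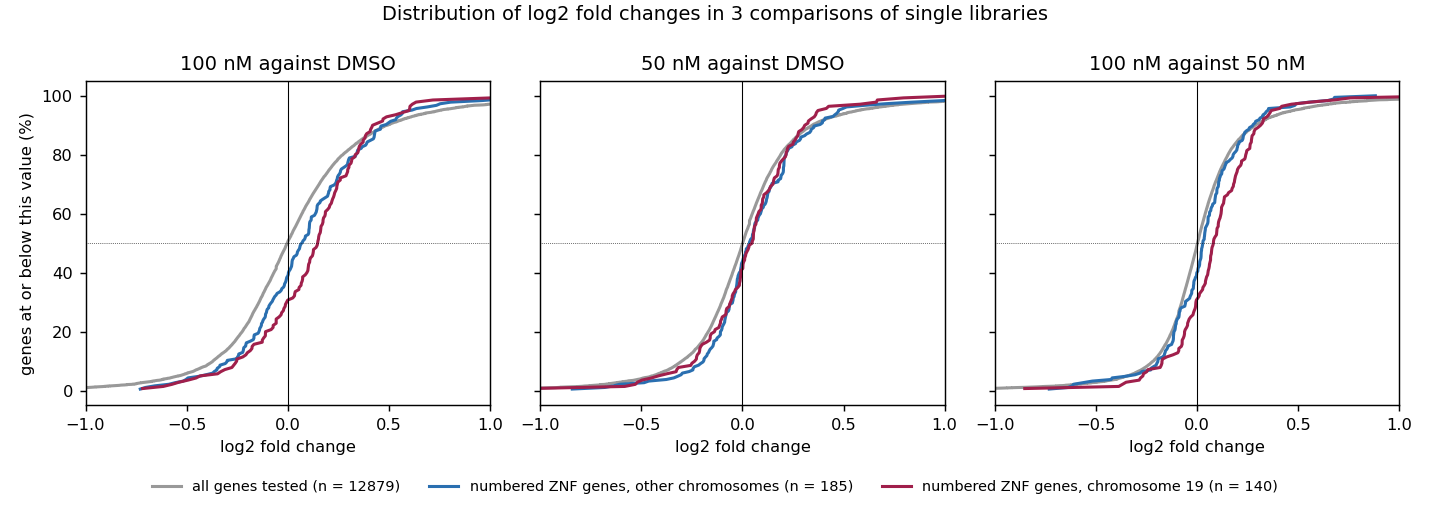
Cumulative share of genes (percent) at or below each log2 fold change in the 3 comparisons, for the 140 tested members, the 185 tested numbered ZNF genes on other chromosomes and all 12879 genes tested, with the axis limited to -1 to 1. At 100 nM against DMSO the curve of the members crosses 50% at 0.15 and that of all genes at -0.0023.

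ZNF837 had the largest log2 fold change among the members called, from few reads. It had 14, 29 and 40 counts in the DMSO, 50 nM and 100 nM libraries, in that order, as in all triplets of counts below. At 100 nM it stood 1.42 above DMSO on the log2 scale (95% counting interval 0.55 to 2.45, adjusted p = 0.00299, exact binomial test). The gene lies near the end of the long arm, at positions 58878990 to 58892389 on the minus strand (hg19).

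The 6 members with the largest rises among those with at least 50 counts were ZNF543, ZNF181, ZNF121, ZNF493, ZNF333 and ZNF541. ZNF181 (35225480 to 35233774, plus strand) had 440, 527 and 702 counts and stood above DMSO at 100 nM by a log2 of 0.62 (0.44 to 0.79, adjusted p = 1.52e-11, exact binomial test). ZNF121 (9676292 to 9695209, minus strand) had 412, 479 and 652 counts, and its value was 0.60 (0.43 to 0.79, adjusted p = 1.75e-10). For both genes the counts were ordered by dose, and both doses and the step between them passed the test. ZNF333 (14800870 to 14831772, plus strand) had 362, 458 and 558 counts, its value was 0.57 (0.37 to 0.76, adjusted p = 3.27e-08), and passed the test at both doses against DMSO.

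ZNF543, ZNF493 and ZNF541 were measured from fewer reads. ZNF543 (57831865 to 57842144, plus strand) had 74, 115 and 127 counts, with log2 fold changes of 0.72 (0.30 to 1.16) at 100 nM and 0.67 (0.24 to 1.11) at 50 nM. The values at the 2 doses were close, and the step from 50 to 100 nM was 0.051 (-0.32 to 0.43). ZNF493 had 55, 61 and 87 counts and a value at 100 nM of 0.60 (0.10 to 1.12, adjusted p = 0.0359, exact binomial test). ZNF541, known as a meiotic factor of germ cells, had 128, 131 and 193 counts and a value at 100 nM of 0.53 (0.21 to 0.87, adjusted p = 0.00378). Its value at 50 nM was 0.068 (-0.30 to 0.43), and the step between the doses was 0.47 (0.14 to 0.80). ZNF181 shares 11.1% of its 75-base windows with other genes, so part of its reads is uncertain.

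The other members called higher at 100 nM had changes of 0.24 to 0.45 on the log2 scale and were ZNF566, ZNF805, ZNF564, ZNF784, ZNF627, ZNF490, ZNF708, ZNF529, ZNF414, ZNF100, ZNF569, ZNF549, ZNF526, ZNF44, ZNF587, ZNF700, ZNF766 and ZNF888, besides those described further on. All were named for passing the test. ZNF566, at the upper end of that range, had 194, 227 and 275 counts, and ZNF888, at the lower end, had 551, 539 and 676. ZNF587 had 1413, 1560 and 1806 counts, of which a part is uncertain because 18.0% of its windows are shared. In ZNF627 (610, 641 and 822 counts) and ZNF766 (1185, 1201 and 1459 counts) the 100 nM library stood apart from the other two, whereas in ZNF784 (147, 193 and 203 counts) both treated libraries stood above DMSO.

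Among members with at least 50 counts, the 6 with the largest falls were ZNF57, ZNF579, ZNF114, ZNF584, ZNF444 and ZNF556. ZNF792, ZNF573 and ZNF571 had lower values than some of these (-0.72, -0.62 and -0.49) from fewer reads, were not called, and were named after their values were seen. ZNF579 (56088891 to 56092211, minus strand) had 324, 219 and 232 counts and was changed at 100 nM by a log2 of -0.54 (-0.79 to -0.29, adjusted p = 6.95e-05, exact binomial test). The DMSO library stood above both treated libraries, which differed by -0.0083 (-0.28 to 0.27). ZNF57 (2900896 to 2918474, plus strand) followed the same order with 126, 87 and 88 counts, at -0.57 (-0.98 to -0.17) and -0.50 (-0.91 to -0.094) for 100 and 50 nM.

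ZNF114 (48774654 to 48790863, plus strand) fell between the doses instead. It had 478, 446 and 363 counts, with log2 values of -0.066 (-0.26 to 0.12) at 50 nM and -0.45 (-0.65 to -0.25, adjusted p = 3.10e-05, exact binomial test) at 100 nM. ZNF584 had 527, 479 and 431 counts and at 100 nM a log2 value of -0.35 (-0.53 to -0.16). ZNF444, which carries a SCAN domain, had 652, 550 and 539 counts, with -0.33 (-0.50 to -0.17) at 100 nM and -0.21 (-0.38 to -0.045) at 50 nM. ZNF556 had 365, 319 and 306 counts and at 100 nM a log2 value of -0.31 (-0.54 to -0.088). ZNF576 was also called lower at 100 nM and was named for passing the test. It had 476, 405 and 416 counts and a log2 value of -0.25 (-0.44 to -0.059, adjusted p = 0.0252, exact binomial test). ZNF57 and ZNF556 both lie in the small cluster at 2.8 to 2.9 Mb, which holds 5 members.

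**Figure D3:**
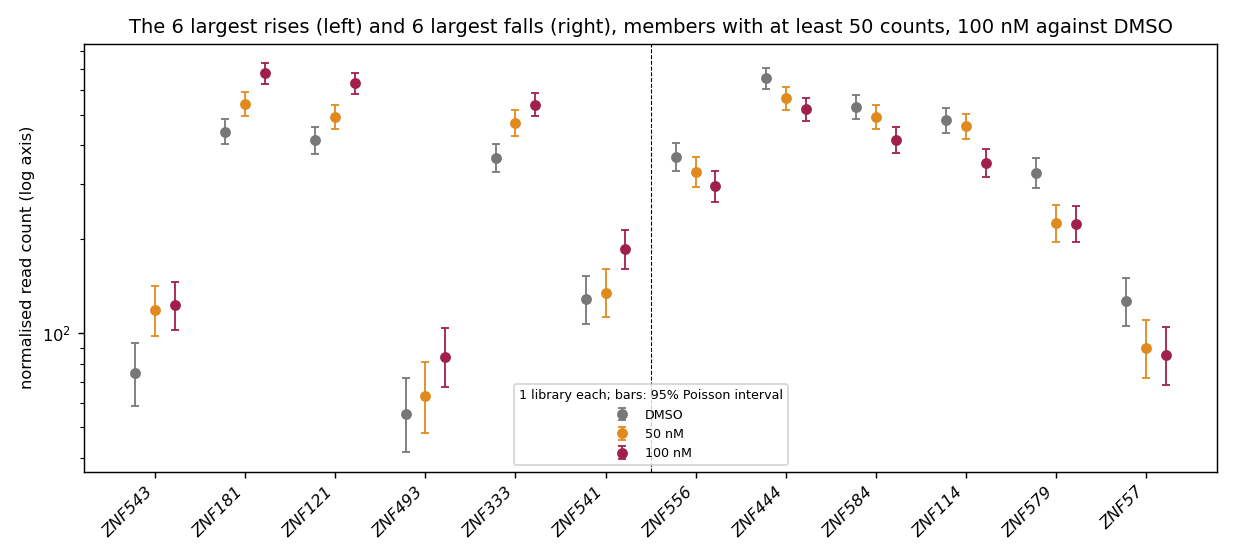
Normalised read counts (log axis) in the DMSO, 50 nM and 100 nM libraries for the 6 members with the largest rises (left) and the 6 with the largest falls (right) at 100 nM among members with at least 50 counts, 1 library per point, with 95% Poisson intervals. ZNF181 and ZNF121 step up at each dose, whereas ZNF579 and ZNF57 lie lower in both treated libraries than in DMSO.

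The members with the highest level per length were ZNF146, ZNF787, ZNF317, ZNF266, ZNF581 and ZNF473. ZNF146 (OZF), whose protein is made of fingers without a KRAB domain, stood far above the rest at 68.6 of the same units in DMSO, and took 10.6% of all member counts in that library. It had 6131, 6576 and 6955 counts, and its log2 value was 0.12 (0.075 to 0.17) at 100 nM and 0.14 (0.085 to 0.19) at 50 nM. It passed the test at both doses (adjusted p = 4.61e-06 and 1.79e-06, exact binomial test) with changes of this small size. ZNF146 and ZNF565 overlap on opposite strands over 240 bases, and the strand setting of the counts is not known here, so reads in that stretch cannot be assigned.

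ZNF787, with 1212, 1211 and 1454 counts, lay 0.21 above DMSO on the log2 scale at 100 nM (0.095 to 0.32). ZNF266, with 1788, 1973 and 2200 counts, had 0.24 (0.15 to 0.33). Both rose by the exact binomial test. ZNF317 had 2136, 2224 and 2335 counts, and its change of 0.071 (-0.014 to 0.16) did not pass. ZNF581 had 501, 491 and 506 counts and a change of -0.043 (-0.22 to 0.14). ZNF473 (ZFP100), a component of the machinery that forms the 3′ end of histone mRNA, had 1880, 1822 and 1720 counts. It fell at 100 nM by 0.19 on the log2 scale (-0.28 to -0.090, adjusted p = 0.000474, exact binomial test), while its value at 50 nM was -0.011 (-0.11 to 0.083).

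Of the other members with a known role, ZNF274 rose. ZNF274 brings SETDB1 to the 3′ ends of zinc finger genes themselves, and had 584, 600 and 742 counts. Its log2 fold change was 0.29 (0.13 to 0.45, adjusted p = 0.00116, exact binomial test) at 100 nM and 0.073 (-0.094 to 0.24) at 50 nM. ZNF175 had 379, 445 and 460 counts and passed the test at 50 nM (0.27, adjusted p = 0.0342) but not at 100 nM (0.22, adjusted p = 0.0603). ZNF296 had 408, 318 and 389 counts and was called lower at 50 nM (-0.32, adjusted p = 0.0124), with -0.13 (-0.33 to 0.078) at 100 nM. For neither gene was a difference between the doses called (0.20 for ZNF296, adjusted p = 0.231, and -0.044 for ZNF175, adjusted p = 0.846, exact binomial test).

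ZNF224, a partner of WT1, had 480, 421 and 492 counts, and ZNF420 (Apak), a regulator of p53, had 325, 314 and 344. Their log2 fold changes at 100 nM were -0.021 (-0.21 to 0.16) and 0.025 (-0.20 to 0.25). No difference was called for either, and the intervals bound what counting error allows. ZNF224 overlaps LOC100379224 on the opposite strand over 1931 bases of its exons, and its counts are uncertain for that reason.

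The second comparison took the lower dose. At 50 nM against DMSO, 83 of the 140 tested members (59.3%) lay above 0, with a median log2 fold change of 0.048, against 0.00071 over all genes tested. By the exact binomial test 14 members were called higher (10.0%) and 5 lower (3.57%), where the background was 14.5% higher and 14.1% lower. The members called lower were ZNF57, ZNF579, ZNF444 and ZNF296 together with ZNF324, which was named after its values were seen. ZNF324 shares 13.1% of its windows with other genes, and 4 were called lower when members with over 5% shared were left out. No member was called at 2-fold, against 1.06% of all genes (0.784% higher and 0.28% lower). Called changes ranged from 0.14 to 0.67 among those higher and from -0.53 to -0.21 among those lower.

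The third comparison set the 2 doses against each other. From 50 to 100 nM, 97 of 140 members (69.3%) lay above 0, with a median of 0.080. Over all genes tested, 50.2% lay above 0 and the median was 0.00092. The exact binomial test called 13 members higher (9.29%, background 8.01%) and 2 lower (1.43%, background 9.36%), the latter being ZNF473 and ZNF114. The members called higher ranged from 0.17 to 0.68 and included ZNF121, ZNF181, ZNF541, ZNF787 and ZNF274, described above. No member was called at 2-fold, against 0.621% of all genes. The comparisons share libraries, so their values are set side by side and are not independent of each other.

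Summed over all 173 members, the counts were 57839, 58494 and 65104, or 0.250%, 0.258% and 0.270% of the library. After scaling, the summed log2 ratio was 0.11 (95% counting interval 0.098 to 0.13, a rise of 8.20%) at 100 nM against DMSO. It was 0.051 (0.034 to 0.067) at 50 nM against DMSO and 0.063 (0.047 to 0.079) from 50 to 100 nM. Without ZNF146 the ratios were 0.11, 0.040 and 0.072. These intervals cover counting error, and the spread between cultures was not measured.

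Numbered ZNF genes on other chromosomes also lay mostly above 0. Their summed log2 ratio at 100 nM against DMSO was 0.070 (0.059 to 0.080), and the interval did not meet that of the members. At 50 nM it was 0.044 (0.033 to 0.055), which overlapped that of the members and was above their 0.040 without ZNF146. These intervals cover counting error and not the spread between genes or between cultures. Of 185 tested, 114 (61.6%) lay above 0, with a median of 0.072. Of these 185, 51 (27.6%) were called higher and 18 (9.73%) lower, both larger shares than among the members. Their median count was also higher (417 against 251), and with more counts smaller changes pass the test. By level, the median log2 fold change of the ZNF genes elsewhere was above that of the members in the lowest quartile of counts (0.23 against 0.17). It was also above in the highest (0.10 against 0.071, the latter from 5 members). In the second quartile it was below that of the members (0.047 against 0.11), as in the third (0.0066 against 0.21). The other 774 tested genes of chromosome 19 had a median of -0.027, with 350 (45.2%) above 0, 159 called higher and 211 called lower. From 50 to 100 nM the medians were 0.080 for the members, 0.028 for the ZNF genes elsewhere and 0.0079 for the other genes of the chromosome. These medians describe the lists, and no difference between the lists was tested.

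The position within chromosome 19 was examined next. At 100 nM against DMSO, the median log2 fold change of the tested members was 0.10 at 2.8 to 2.9 Mb (5 members), 0.15 at 8.6 to 9.9 Mb (11) and 0.16 at 11.6 to 12.7 Mb (15). It was 0.14 at 19.8 to 23.9 Mb (9), 0.14 at 36.7 to 38.3 Mb (18) and 0.035 at 44 to 45.6 Mb (15). It was 0.22 at 52.1 to 54.1 Mb (14) and 0.16 in the terminal cluster (40). The medians of all these clusters were above 0, the lowest being that at 44 to 45.6 Mb. No member was called higher at 44 to 45.6 Mb, where 1 of 15 was called lower, or at 2.8 to 2.9 Mb, where 2 of 5 were called lower. Over all tested members 21.4% were called higher and 5.71% lower, and over all genes tested 21.4% and 22.2%. No cluster was tested against these shares. Places with fewer than 3 tested members are not listed. Among members alone at their place, ZNF536 (-0.057) and ZNF473 (-0.19) lay below 0, and ZNF557, ZNF333, ZNF507 and ZNF546 lay above. Of the 40 tested members in the terminal cluster, 8 were called higher and 3 lower. Of the 15 at 11.6 to 12.7 Mb, 5 were called higher and none lower. The 3 tested members at 35.2 to 35.5 Mb had a median of 0.47, and 2 of them, ZNF181 and ZNF302, were called higher. ZNF302, which was named after its values were seen, had 560, 629 and 808 counts and shares 5.77% of its windows with other genes.

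Level and length were then set against all genes, since members are low and fold changes of low genes vary more. Genes were split into quartiles of the mean normalised count, with bounds at 128, 636 and 1700. In the lowest quartile the median log2 fold change at 100 nM was 0.17 for 43 members and 0.12 for all genes. In the second it was 0.11 for 73 members and -0.0035 for all genes, and in the third 0.21 for 19 members and -0.024 for all genes. In the highest, 5 members had a median of 0.071, against -0.021. The members were thus above the median of genes of like level in each quartile, by the least in the lowest.

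Calls were then counted in the same quartiles of level. In the lowest quartile 6.98% of the members and 11.1% of all genes were called higher, and 2.33% and 5.93% lower. In the second, 20.5% of the members and 20.0% of all genes were called higher, and 8.22% and 18% lower. In the third quartile 10 of 19 members (52.6%) were called higher, against 23.7% of all genes, and none was called lower, against 28.0%. In the highest, 2 of 5 members (40%) were called higher and 1 (20%) lower, against 30.8% and 37% of all genes. By exonic length, the medians from the shortest to the longest quartile were 0.14, 0.070, 0.15 and 0.18 for the members, against -0.029, -0.028, -0.0058 and 0.041 for all genes. The part of level and length in the members' values was not tested beyond these splits.

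**Figure D4:**
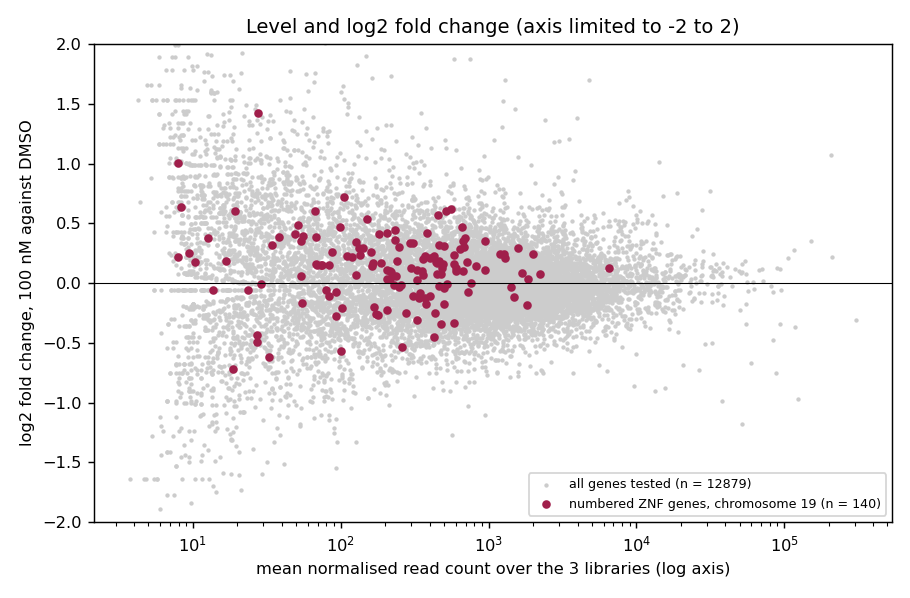
Log2 fold change at 100 nM against DMSO (vertical, limited to -2 to 2) by mean normalised read count over the 3 libraries (horizontal, log axis) for the 140 tested members and all 12879 genes tested. The members sit mostly at low counts, around a median of 251, with 98 of the 140 above 0.

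The proteins through which KRAB zinc finger proteins act were read from a list of 30 genes, all of which were tested. At 100 nM against DMSO, 7 were called higher (23.3%, against 21.4% of all genes) and 11 lower (36.7%, against 22.2%) by the exact binomial test, with a median log2 fold change of -0.069 against -0.0023 for all genes. At 50 nM, 6 were called higher and 6 lower (20% each, against 14.5% and 14.1% of all genes). None of the 30 was called at 2-fold in any comparison. TRIM28, the shared corepressor, had 17728, 17986 and 19242 counts, and its log2 value at 100 nM was 0.061 (0.032 to 0.091). SETDB1 had 1718, 2080 and 2334 counts, with 0.38 (0.29 to 0.48). TRIM28 and SETDB1 were named for their role with their values known.

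The largest rises on that list were those of ATF7IP, the partner that stabilises SETDB1, with 600, 736 and 879 counts and a value of 0.49 (0.34 to 0.65), and MORC2, an ATPase that works with the HUSH complex, with 1078, 1211 and 1520 counts and 0.44 (0.33 to 0.55). The largest falls were those of the NuRD remodellers CHD3, with 5193, 4311 and 4090 counts and -0.40 (-0.46 to -0.34), and CHD4, with 9726, 8222 and 8021 counts and -0.34 (-0.38 to -0.29). All passed the exact binomial test, in which such high counts make small changes pass. The list thus moved in both directions, SETDB1 and its partner upward and the NuRD remodellers downward.

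**Figure D5:**
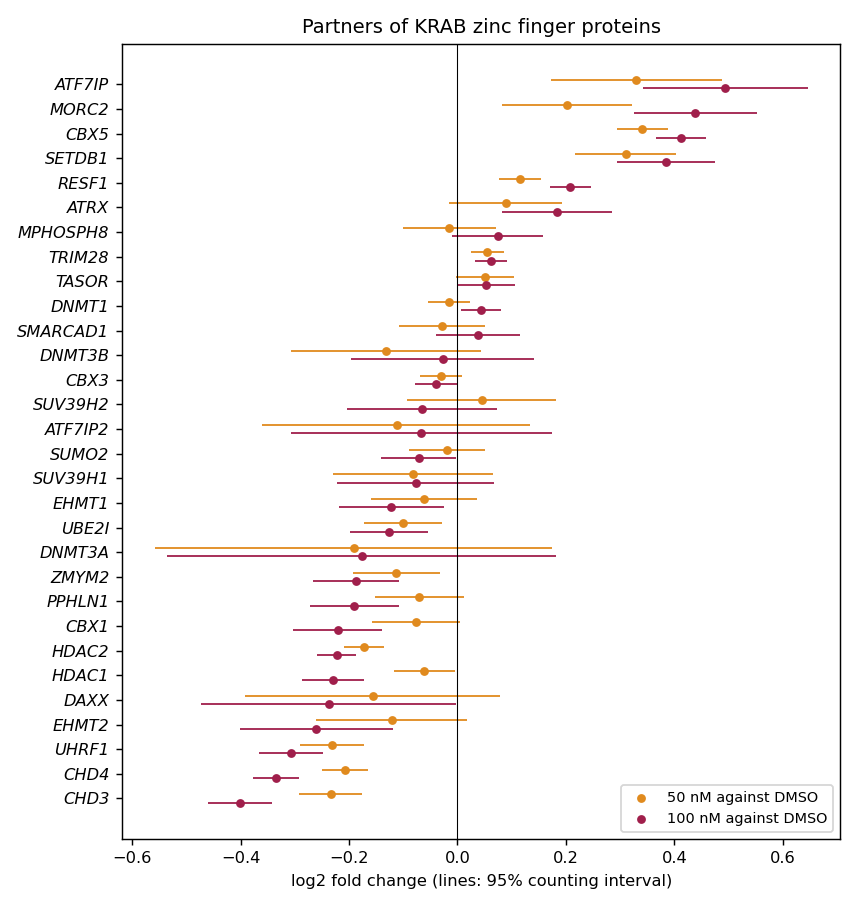
Log2 fold change (points) with 95% counting intervals (lines) at 50 nM and 100 nM against DMSO for the 30 genes whose proteins work with KRAB zinc finger proteins, ordered by the value at 100 nM. ATF7IP (0.49) and MORC2 (0.44) lie at the upper end and CHD3 (-0.40) and CHD4 (-0.34) at the lower end.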

How the data were processed

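RNA of Molm13 cells was measured in 3 libraries, DMSO, 50 nM and 100 nM pyrvinium, each after 6 h. One treatment label gives the higher dose without its prefix, and the 100 nM of the title and design was used. Per the paper's methods and the labels, the authors made poly(A)-selected stranded libraries, used Rsubread to align read pairs to hg19, and what they deposited is raw counts per gene, as whole numbers. The strand setting of the counting is not given in the sources used here. The authors' table of EBSeq comparisons holds their posterior probabilities and fold changes, which were not used, and gave gene identifiers and symbols. Near-identical and overlapping genes may lose or share reads: 11 of the 140 tested members overlap an exon of another gene, and 11 share over 5% of their 75-base windows with genes elsewhere.

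The tests covered 12879 genes, those reaching 10 counts somewhere among the libraries. Counts were scaled by TMM (edgeR 4.0.16, R 4.3.3), 0.5 counts were added per library for log2 fold changes, and each pair of libraries was compared by a two-sided exact binomial test (scipy 1.17.1) with the Benjamini-Hochberg adjustment over all genes tested. A gene is called at an adjusted p of at most 0.05. Intervals are 95% Clopper-Pearson (shares of a library: Wilson) and cover counting error only. With 1 library per condition a p-value holds no spread between cultures, and the count model with replicate dispersion could not be used as the main test. Other settings tried were scaling by DESeq2 1.42.0 or by library totals, other filters, 5 counts added, 1.5-fold, assumed spreads in edgeR's exact test, and edgeR's quasi-likelihood dose trend. The procedure was also run on simulated counts drawn with counting error alone. That run holds no spread between cultures and cannot check the calls against it.

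The members and lists were chosen with earlier results of these data known. Named members were 17 family genes with a known role, the 6 highest per kilobase, the 6 largest rises and 6 largest falls at 100 nM among members reaching 50 counts in either library, and each member called at 2-fold. For the partners, the 2 largest changes each way with at least 50 counts were named. All 173 symbols equal RefSeq symbols, and promoters are from RefSeq (GRCh38.p14), while gene positions are on hg19. Protein sequences were not analysed here.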

Additional observations from a re-analysis of the deposited data

How the results depend on the processing

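Medians and summed ratios of the members moved little under every alternative run, and no direction turned. Calls depended on the assumed spread. When edgeR's exact test was given a biological coefficient of variation of 0.1, 0 members were called higher, 0 lower and 0 at 2-fold in each comparison (9, 2 and 1 members at an unadjusted p of at most 0.05 for 100 nM against DMSO, 50 nM against DMSO and 100 against 50 nM). With 0.2, all of these were again 0 (1, 0 and 0 unadjusted). Over all 12879 genes tested, 244, 36 and 16 were called at 0.1, and 12, 0 and 4 at 0.2. The unadjusted numbers over all these genes were 1453, 587 and 268 at 0.1, and 312, 131 and 93 at 0.2. The unadjusted numbers of members above are out of 140. edgeR's quasi-likelihood dose trend, with 1 residual degree of freedom, called 14 members higher in place of 30 and 4 lower in place of 8 (ZNF114, ZNF444, ZNF579 and ZNF584), and 2633 of all genes. At 1.5-fold in place of 2-fold, 5 members were called at 100 nM (ZNF837, ZNF543, ZNF181, ZNF121 and ZNF493), 1 at 50 nM (ZNF543) and 1 between the doses (ZNF429, named after its values were seen). No share over all genes is at hand for 1.5-fold, so these counts cannot be read against a background. With at least 100 counts summed over the libraries, ZNF837 was not tested and 0 members were called at 2-fold at 100 nM. Without a filter, 3 members in place of 5 were called lower at 50 nM, more genes being adjusted over. Leaving out members with over 5% shared windows, and ZNF146, were chosen after seeing the data. No paired analysis was possible because there was 1 library per condition. Counting error limits members under 100 counts most, and no estimate of the spread between cultures can be had from these libraries.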

Other observations

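Zinc finger genes of chromosome 19 with other symbols (ZFP, ZSCAN, HKR, or ZNF with a letter after the number) lay outside the rule, and a list of them was read in the same way. Of these, 9 were tested, and 7 of them lay above 0 at 100 nM against DMSO. By the exact binomial test with the Benjamini-Hochberg adjustment, 2 were called higher (22.2%, against 21.4% of all genes tested) and 0 lower (against 22.2%). Before adjustment, 3 of the 9 had p of at most 0.05 in that test, in either direction, against 6434 of all 12879 genes tested. ZNF780A had 763, 786 and 981 counts in the DMSO, 50 nM and 100 nM libraries and a log2 fold change of 0.31. ZNF780B had 576, 648 and 726 counts and 0.28. The 2 genes are close paralogs, and reads shared between them are uncertain. ZNF585B had 5, 10 and 16 counts and a log2 fold change of 1.53 (0.11 to 3.42), which did not pass the adjusted test (adjusted p = 0.0605). All 3 were named after their values were seen.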
